A study of Homo sapiens with 4 samples.

Results

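SK-MEL-28 cells carrying an inducible MYC gene were compared by RNA-Seq with cells of the same origin carrying an empty vector, with doxycycline (Dox) on both sides. The comparison takes 2 of the 4 libraries of the series and covers 11147 of the 25268 gene symbols, those with a mean of at least 1 FPKM (fragments per kilobase of a gene's transcript, scaled to the mapped fragments of the library) over the 4 libraries. SK-MEL-28 is a human melanoma line in long-established use. Both lines were made by lentiviral transduction and selected with geneticin (G418) for 4 days. The vector line carries empty pTRIPZ, and the MYC-inducible line carries a MYC gene behind a Tet-inducible promoter. Dox was present for 54 h in the libraries compared here, and the other 2 libraries are the same lines without Dox. Each condition has 1 library, so no difference has a replicate check, no p-value is given, and differences between the cultures cannot be told apart from differences made by the transgene. Whether the transduced cells were kept as a pool or grown from single clones is not given in the sources used here.

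MYC is a transcription factor that pairs with MAX and binds the E-box, a short palindromic DNA element, in the promoters of many genes. Genes for building ribosomes, for making nucleotides and polyamines, and for folding proteins are textbook MYC-linked genes, and cell cycle inhibitors such as CDKN1A are textbook genes that MYC holds down. The study asked whether raised MYC activity changes genes of the splicing machinery, among them the CLK kinases, and here exposure to Dox is equal on both sides.

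With Dox, 724 of the 11147 genes (6.50%) were at least 1.5-fold higher in the MYC-inducible line than in the vector line, and 961 (8.62%) were at least 1.5-fold lower. Differences were taken on the scale log2(FPKM + 0.1), which understates those of low genes. The higher genes included many ribosome assembly factors, of which 29 of 41 were past 1.5-fold upwards and none downwards. The lower genes included very abundant ones, such as LGALS1, PMEL and CD63, with secreted matrix proteins, S100 proteins, lysosomal enzymes and cell cycle inhibitors. Without Dox, the same 2 lines differed at 98 genes, 66 (0.592%) higher and 32 (0.287%) lower in the MYC-inducible line. The spread of the differences, as a robust SD, was 0.37 with Dox and 0.11 without.

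**Figure D1:**
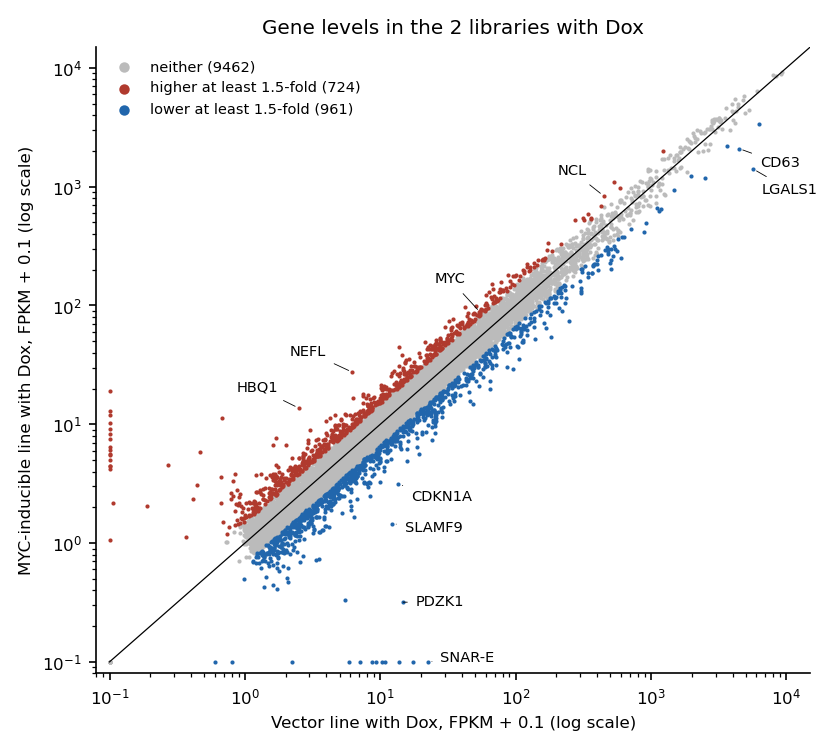
Gene levels in the vector line (x axis) and the MYC-inducible line (y axis), both with Dox, as FPKM + 0.1 on log scales, with 1 point for each of 11147 genes. The 724 genes at least 1.5-fold higher (red) and the 961 at least 1.5-fold lower (blue) lie on both sides of the line of equal levels, and the most abundant of them, LGALS1 and CD63 among others, lie below it.

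Depth, recovered from the steps between very low FPKM values, was approximately 3.51e+07 fragments for vector cells with Dox and 3.93e+07 for MYC-inducible cells with Dox, and 3.91e+07 and 4.21e+07 in the libraries without Dox. Counting errors below rest on these depths and on annotated transcript lengths, and they cover the sampling of fragments only. The FPKM values of each library summed to between 692146 and 715495. All 8 markers of the melanocyte lineage were present in both libraries with Dox, and their median difference was -0.34. Of 19 markers of keratinocytes, epithelium, leukocytes, endothelium and fibroblasts, 4 passed the level filter, KRT5 and KRT1 were among those listed at 0 in all libraries, and the summed level was 66.1 FPKM in the vector line and 77.2 FPKM in the MYC-inducible line with Dox. EPCAM, an epithelial adhesion protein, had 0.658, 0.769 and 0.726 FPKM in the other libraries and 2.71 FPKM in the MYC-inducible line with Dox, the library through which it passed the filter. Because FPKM values are shares of a library, a change in the RNA content of a cell cannot be seen in them, and fewer cells expressing a gene cannot be told apart from less RNA per cell.

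The promoters of 4 ribosome assembly genes that were higher in the MYC-inducible line are shown with the E-box that lies next to their transcription start, and that of NCL, which was also higher, is shown because its window does not hold one. Each runs from 100 bases before the annotated start to 30 bases after it, in lower case and in the direction of transcription, from RefSeq on GRCh38.p14. Capitals mark the E-box letters CACGTG. FBL is at chr19:39846350-39846479 (minus strand), RRP9 at chr3:51941875-51942004 (minus strand), UTP20 at chr12:101280005-101280134 (plus strand), PNO1 at chr2:68157788-68157917 (plus strand) and NCL at chr2:231464455-231464584 (minus strand).
FBL: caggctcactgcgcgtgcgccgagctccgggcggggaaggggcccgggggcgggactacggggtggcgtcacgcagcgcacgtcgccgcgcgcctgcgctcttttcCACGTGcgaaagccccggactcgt
RRP9: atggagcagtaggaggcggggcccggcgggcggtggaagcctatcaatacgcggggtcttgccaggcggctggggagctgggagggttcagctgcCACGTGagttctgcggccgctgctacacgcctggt
UTP20: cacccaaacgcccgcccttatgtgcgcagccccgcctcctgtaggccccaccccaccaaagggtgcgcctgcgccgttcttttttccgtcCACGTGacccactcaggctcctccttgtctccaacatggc
PNO1: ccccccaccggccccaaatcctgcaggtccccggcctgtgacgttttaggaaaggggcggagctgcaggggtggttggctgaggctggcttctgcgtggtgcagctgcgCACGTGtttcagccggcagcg
NCL: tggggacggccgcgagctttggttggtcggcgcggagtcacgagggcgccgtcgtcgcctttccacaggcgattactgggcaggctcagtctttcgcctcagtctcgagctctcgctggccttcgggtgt

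The first letter of the E-box lay 6 bases after the start base in FBL and 9 after it in PNO1, and 5 bases before it in RRP9 and 10 before it in UTP20. All 5 genes act in the nucleolus or on ribosomal particles. FBL, the methyltransferase of box C/D small nucleolar particles, had 311 FPKM in vector cells without Dox and 316 FPKM in vector cells with Dox, then 314 FPKM in MYC-inducible cells without Dox and 550 FPKM in MYC-inducible cells with Dox. UTP20, a component of the small subunit processome, had 4.09, 4.20, 4.03 and 7.70 FPKM in the same order, which is kept for all values in 4 libraries below. RRP9 had 36.99, 41.3, 35.3 and 64.9 FPKM and PNO1 had 24.6, 24.2, 23.01 and 38.5 FPKM. For these genes the MYC-inducible line with Dox stood apart, and the other 3 libraries lay close together. NCL, nucleolin, without the E-box in its window, had 437, 447, 468 and 837 FPKM, a log2 difference of 0.91 with Dox and 0.10 without.

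MYC itself (GRCh37 chr8:128747680-128755197) had 58.3, 54.8, 76.5 and 87.1 FPKM. With Dox it was 1.59-fold higher in the MYC-inducible line (log2 difference 0.67, counting error 0.0213), and without Dox the log2 difference was already 0.39. Subtracting the difference without Dox from that with Dox left 0.28. Fragments from the introduced MYC gene and from the cells' own gene cannot be told apart in these values. MAX, the partner of MYC, had 31.8, 30.6, 32.2 and 38.7 FPKM, a log2 difference of 0.34 with Dox. MYC was the only one of 9 measured members of the MYC, MAX and MXD network past 1.5-fold with Dox, and the median of the network was 0.15. Counts in the gene lists below are read against the 6.50% of all genes that were higher and the 8.62% that were lower, and a share near these is no result about a list.

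Ribosome assembly factors process ribosomal RNA and build it into ribosomal subunits. All 41 measured factors had a positive difference with Dox, from 0.06 to 1.204, and 29 of them (70.7%) were past 1.5-fold, against 6.50% of all genes. The median of the list was 0.66 with Dox and 0.01 without. LYAR, a nucleolar protein, had 21.3, 21.2, 21.5 and 48.9 FPKM, a 2.30-fold difference with Dox. DDX21, a nucleolar RNA helicase, had 15.8, 16.1, 16.9 and 35.1 FPKM. NOLC1, a scaffold of nucleolar particles, had 29.7, 30.2, 32.0 and 65.4 FPKM, and RRP1B had 7.33, 7.33, 7.63 and 15.1 FPKM. In each of them only the MYC-inducible line with Dox was high. NOP16, a ribosome assembly factor whose splicing the study followed, had 68.2, 68.0, 61.4 and 137 FPKM, a log2 difference of 1.01 with Dox against -0.15 without. The smallest difference was that of NOP10, a component of box H/ACA particles, with 377 FPKM in the vector line and 392 FPKM in the MYC-inducible line with Dox.

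The polymerases that transcribe ribosomal and transfer RNA had a median of 0.36, with 5 of 22 subunits and factors past 1.5-fold, all of them upwards. CD3EAP, a subunit of RNA polymerase I, had 2.74, 2.78, 2.90 and 6.16 FPKM, and POLR1B, its second largest subunit, had 4.43, 4.49, 4.54 and 9.07 FPKM. Structural ribosomal proteins differed less. None of 81 cytosolic ribosomal protein genes was past 1.5-fold, although 71 of them had a positive difference and their median was 0.20. Their summed level was 1.13 times as high in the MYC-inducible line with Dox as in the vector line with Dox. Of 77 mitochondrial ribosomal protein genes, 10 (12.99%) were past 1.5-fold upwards and none downwards, with a median of 0.35, and MRPL21, MRPL2 and MRPS2 had the largest differences at 0.72 each.

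Translation and protein folding genes had positive medians. Among 23 translation factors, 5 (21.7%) were past 1.5-fold upwards and the median was 0.30. EIF3J, a loosely bound subunit of initiation factor eIF3, led them with 23.1, 23.9, 26.4 and 45.3 FPKM. Of 23 aminoacyl-tRNA synthetases and their partners, which load transfer RNAs with amino acids, AIMP2 (0.72) and FARSB (0.68) were past 1.5-fold, a share of 8.70% that lay near the 6.50% of all genes, and the median was 0.32. Of 16 chaperones, 6 (37.5%) were past 1.5-fold and all 16 had a positive difference, with a median of 0.50. TRAP1, the HSP90 of mitochondria, had 59.7, 66.4, 59.9 and 152 FPKM. HSPD1, the mitochondrial HSP60, had 528, 533, 586 and 1085 FPKM, and its partner HSPE1 had 594, 593, 604 and 982 FPKM. The cytosolic chaperonin subunits TCP1 (0.82) and CCT2 (0.60) were past 1.5-fold as well.

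Nucleotide synthesis enzymes were past 1.5-fold at 9 of 26 genes (34.6%), all upwards, with a median of 0.42. PPAT, the first committed enzyme of purine synthesis, had 6.70, 6.43, 6.77 and 12.1 FPKM. PFAS (0.85), PAICS (0.77) and GART (0.73) of the same pathway and IMPDH2 (0.74), on the way to guanine nucleotides, were also past 1.5-fold. CAD, which starts pyrimidine synthesis, had 11.4, 11.6, 11.3 and 15.2 FPKM, a log2 difference of 0.39 that did not reach 1.5-fold. Enzymes of serine synthesis and folate one-carbon metabolism, which supply purine rings, had a median of 0.38, and MTHFD1L, MTHFD2 and PSAT1 of 10 measured were past 1.5-fold upwards.

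Polyamine genes went both ways. ODC1, the rate-limiting enzyme of polyamine synthesis, had 32.8, 42.2, 36.3 and 96.1 FPKM, 2.28-fold higher with Dox. AMD1 and SRM, which also act in synthesis, had log2 differences of 0.79 and 0.78. PAOX and SAT1, which act in the breakdown and export of polyamines, had -0.75 and -0.63. None of the 10 polyamine genes was past 1.5-fold without Dox, and their median with Dox was 0.02.

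**Figure D2:**
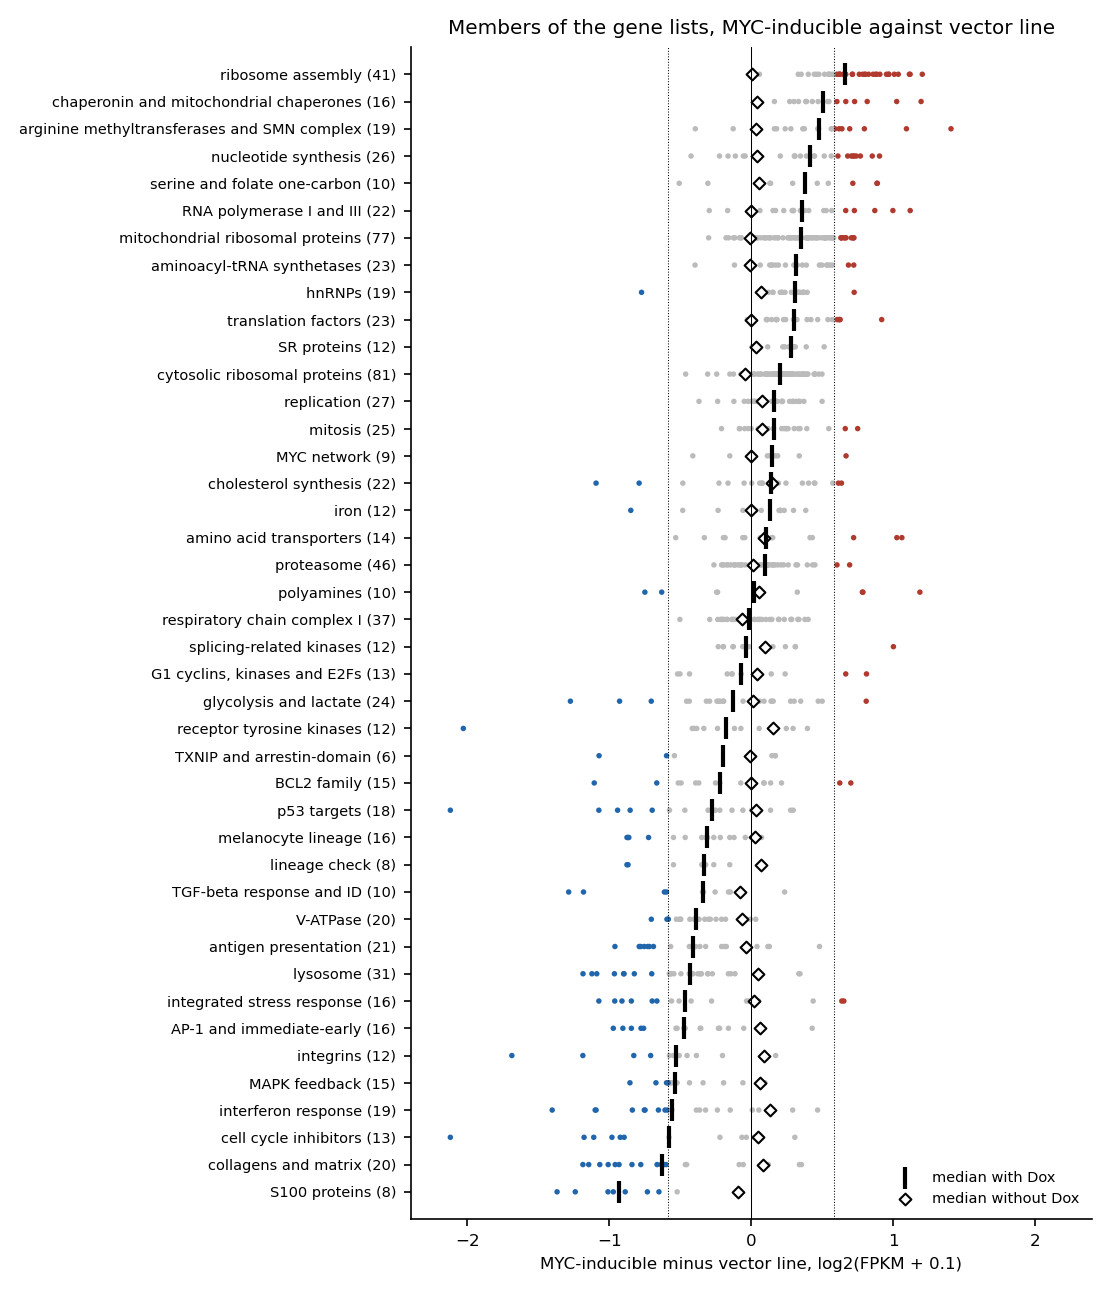
Differences between the MYC-inducible and the vector line with Dox (x axis, log2(FPKM + 0.1)) for the measured members of each gene list with at least 5 of them, 1 point a gene, red and blue beyond 1.5-fold in either direction (dotted lines). The median with Dox (bar) ran from -0.93 for S100 proteins to 0.66 for ribosome assembly, and the medians without Dox (diamonds) lay near 0.

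SR proteins, hnRNPs and splicing-related kinases differed less than ribosome assembly factors. Core genes of the spliceosome were not among the gene lists. SRSF1, an SR protein that binds exonic enhancers, had 40.1, 39.9, 41.6 and 57.0 FPKM, a 1.43-fold difference. None of 12 SR proteins was past 1.5-fold, all 12 had a positive difference, and the median was 0.28. Of 19 hnRNPs, SYNCRIP (0.72) was past 1.5-fold upwards and HNRNPH2 (-0.77) downwards, and the median was 0.31. HNRNPH2 had 4.05, 6.19, 5.49 and 3.58 FPKM, so its difference without Dox, 0.43, had the opposite sign. The CLK kinases, which phosphorylate SR proteins, did not reach 1.5-fold. CLK1 had 19.8, 19.8, 20.4 and 18.2 FPKM, and CLK2 had 7.28, 7.65, 7.77 and 7.57 FPKM. CLK3 had 19.1, 19.4, 21.9 and 24.0 FPKM, and CLK4 had 2.75, 2.31, 2.35 and 2.21 FPKM. Their log2 differences with Dox were -0.13, -0.02, 0.31 and -0.06, that of CLK2 turning to 0.01 when the libraries were scaled by the median ratio, and the counting error of CLK4 was 0.141. SRPK1, another kinase of SR proteins, had 10.1, 10.1, 10.8 and 20.2 FPKM and was the only one of 12 splicing-related kinases past 1.5-fold.

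Arginine methyltransferases, some of which modify Sm proteins, and the SMN complex, which loads Sm proteins onto small nuclear RNAs, form a list. Of its 19 genes, 7 (36.8%) were past 1.5-fold, all upwards, and the median was 0.47. GEMIN5, the subunit of the SMN complex that recognises small nuclear RNA, had 4.28, 4.14, 4.39 and 11.1 FPKM, a 2.65-fold difference. PRMT5, the main enzyme of symmetric arginine dimethylation, had 35.2, 36.7, 34.1 and 57.1 FPKM, a 1.56-fold difference. PRMT3 had 12.6, 11.8, 13.7 and 25.4 FPKM and PRMT1 had 158, 169, 155 and 294 FPKM. In each of these 4 genes the library of MYC-inducible cells with Dox stood apart. SMN2 (0.59) is nearly identical in sequence to SMN1, whose log2 difference was 0.28, so the division of fragments between the 2 is uncertain.

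The genes with the largest rises, among those averaging at least 5 FPKM, were mixed in function. Of them, HBQ1, NAAA, SLCO4A1 and GEMIN5 lay under 5 FPKM in all the other libraries. They entered this ranking only through the MYC-inducible line with Dox, in which they were high. HBQ1, hemoglobin theta (GRCh37 chr16:230458-231178), had 2.48, 2.41, 2.87 and 13.6 FPKM, a log2 difference of 2.45 with a counting error of 0.233. HBA2 and HBA1, the adjacent alpha globins, had 0.343 and 0.368 FPKM in the vector line and 2.99 and 5.78 FPKM in the MYC-inducible line with Dox. These are nearly identical copies, and their values rest on approximately 6.93 and 7.45 fragments in the vector line against 67.9 and 131 in the MYC-inducible line. HBM, in the same cluster and under the level filter, had 0.426, 0.0805, 0.133 and 1.40 FPKM, while HBZ, the embryonic zeta globin, had 0.402, 0.259 and 0.107 FPKM and was listed at 0 in MYC-inducible cells with Dox. Of 10 hemoglobin genes in the table, HBQ1, HBA1 and HBA2 were the 3 that passed the filter, and HBA1 and HBA2 passed it only through the library in which they were high, so that no count or median over the 3 is read. Of the nearest neighbours of the cluster, NPRL3, on one side, had a log2 difference of 0.20 and LUC7L, on the other, 0.29. Further out, ARHGDIG, under the level filter, was also highest in MYC-inducible cells with Dox, with 0.679, 0.588, 0.489 and 1.19 FPKM, and RHBDF1, beyond NPRL3, was lower, with 9.74 FPKM in the vector line and 4.63 FPKM in the MYC-inducible line.

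NAAA, a lysosomal amidase, had 4.20, 2.91, 4.22 and 8.84 FPKM, and SLCO4A1, an organic anion transporter, had 4.35, 3.88, 4.77 and 10.5 FPKM. PUS7, a pseudouridine synthase, had 7.28, 7.31, 8.37 and 17.2 FPKM. SOD2, the mitochondrial superoxide dismutase, had 33.3, 32.3, 31.7 and 73.6 FPKM. C10orf2, the mitochondrial DNA helicase Twinkle, had 14.04, 13.6, 13.7 and 31.1 FPKM. FAM216A (14.1, 14.3, 17.7 and 38.0 FPKM) and the antisense RNA FRMD6-AS1 (5.14, 6.15, 5.36 and 16.6 FPKM) were also among the 15 largest rises of genes averaging at least 5 FPKM. In all 7 the highest library was that of MYC-inducible cells with Dox.

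**Figure D3:**
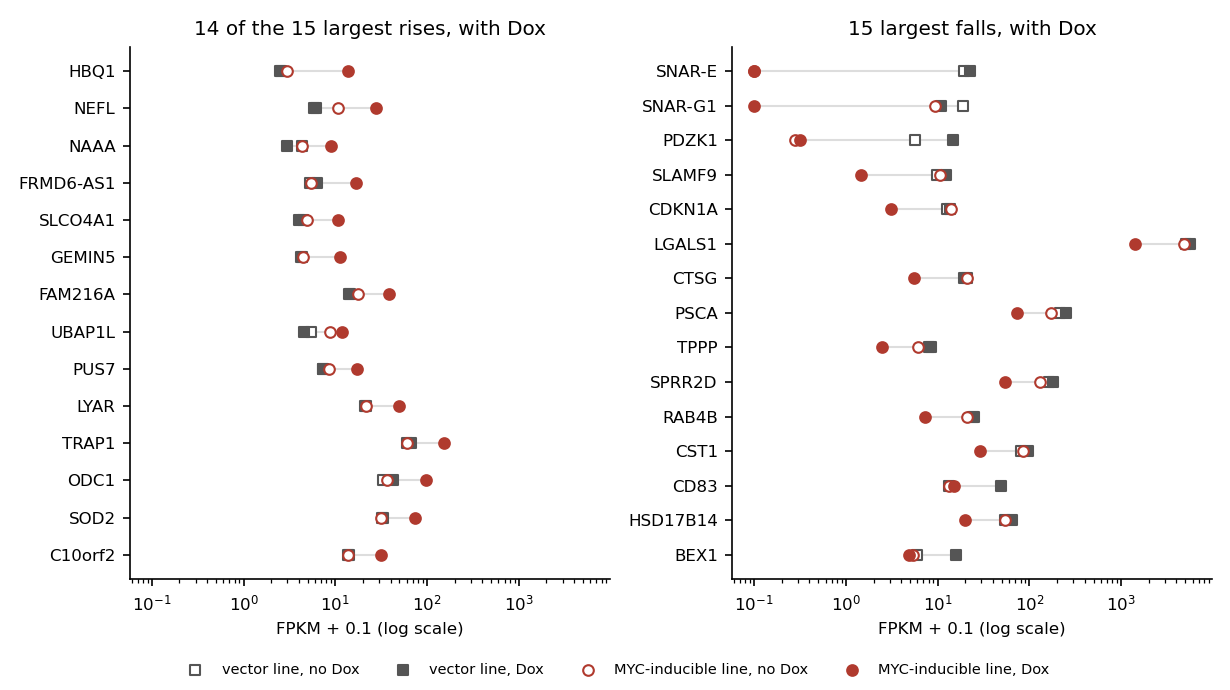
Levels, among genes averaging at least 5 FPKM, of 14 of the 15 with the largest rises (left) and the 15 with the largest falls (right) in the MYC-inducible line with Dox against the vector line with Dox, as FPKM + 0.1 on a log scale, with 1 symbol for each of the 4 libraries. For most of them the MYC-inducible line with Dox (filled circle) stands apart from the other 3. For CD83 and BEX1 the vector line with Dox (filled square) stands apart instead. For PDZK1 and SNAR-E both libraries of the MYC-inducible line lie far under both of the vector line. For several others, PSCA and RAB4B among them, both also lie under, but the library without Dox by less.

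Cell cycle inhibitors were lower at 6 of 13 genes (46.2%, against 8.62% of all genes) and higher at none, with a median of -0.58. CDKN1A, which encodes the inhibitor p21 (GRCh37 chr6:36644237-36655114), had 12.5, 13.5, 13.7 and 3.03 FPKM, a log2 difference of -2.12 with a counting error of 0.102. CDKN2D had 30.3, 28.5, 28.1 and 12.5 FPKM, and CDKN2C had 27.7, 25.8, 28.4 and 11.9 FPKM. These 3 inhibitors were low only in the MYC-inducible line with Dox. CDKN1B, encoding p27, had 11.3 FPKM in the vector line and 11.03 FPKM in the MYC-inducible line with Dox. The genes that drive division showed smaller differences. Of 27 replication genes none was past 1.5-fold in either direction (median 0.16), and of 25 mitosis genes MAD2L1 (0.75) and BUB1B (0.66) were. CDC25A (0.81), a phosphatase that activates cyclin-dependent kinases, and CDK6 (0.67) were the 2 of 13 G1 genes past 1.5-fold.

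Of 18 p53 target genes, 5 were lower and none higher past 1.5-fold, CDKN1A among them, and the median was -0.27. GDF15, a secreted stress cytokine, had 452, 510, 458 and 242 FPKM. In the BCL2 family, which sets the threshold of apoptosis, 2 of 15 genes were lower (13.3%) and 2 higher (13.3%). These shares stand against 8.62% and 6.50% of all genes, and the median was -0.22. The lower ones were the survival genes BCL2A1 (-1.11) and BCL2L1 (-0.67). BCL2L11 (0.70) and BID (0.62), which promote cell death, were the higher ones. No direction of the family is read from so few genes. BCL2A1 had 495, 495, 428 and 230 FPKM and BCL2L11 had 5.20, 4.78, 5.22 and 7.84 FPKM. TXNIP, which restrains glucose uptake, had 24.6, 27.9, 25.98 and 13.2 FPKM, a log2 difference of -1.07. Its list of 6 measured genes holds arrestin-domain genes and also MLXIP and MLX, which are not arrestin-domain genes. ARRDC1 (-0.60) was the only other gene of that list past 1.5-fold. LDHA, the lactate dehydrogenase often named with MYC, had 1430, 1246, 1404 and 1372 FPKM, a log2 difference of 0.14. Among 24 genes of glycolysis and lactate transport, SLC16A1 (0.81) was past 1.5-fold upwards, and ENO2 (-1.27), SLC16A3 (-0.93) and SLC2A3 (-0.70) downwards, with a median of -0.13.

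The most abundant genes that differed were mostly lower. Among the 100 most abundant genes, 1 (1%) was past 1.5-fold upwards and 7 (7%) downwards, against 6.50% and 8.62% of all genes. Only the share of higher genes there was far from that of all genes, and the median difference was 0.16. Among the next 400 genes 13 (3.25%) were higher and 48 (12%) lower. LGALS1, galectin-1 (GRCh37 chr22:38071643-38075809), had 5064, 5659, 4843 and 1414 FPKM, 4.003-fold lower with Dox, and LGALS8 (-0.59) was the other of 4 measured galectins past 1.5-fold. CD63, a tetraspanin of lysosomes and melanosomes, had 4681, 4456, 4454 and 2095 FPKM. PMEL, the fibril protein of melanosomes, had 6176, 6227, 6178 and 3394 FPKM. CAPG, an actin-capping protein, had 4048, 3630, 4144 and 2181 FPKM, and the metallothionein MT2A had 3170, 2524, 3021 and 1189 FPKM. In all 5 the low library was that of MYC-inducible cells with Dox. Together these 5 genes took 3.16% of all FPKM in vector cells with Dox and 1.44% in MYC-inducible cells with Dox. The 961 lower genes took 10.2% and 5.36%, and the 724 higher genes 2.54% and 4.31%. PTMA, prothymosin alpha, was the most abundant of the higher genes, with 1287, 1231, 1337 and 2008 FPKM. VIM, vimentin, an intermediate filament protein, had 1956, 1970, 1990 and 1238 FPKM, and MIA, a secreted melanoma protein, had 1114, 1152, 1164 and 626 FPKM.

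Of the 16 measured genes of the melanocyte lineage, 4 were lower past 1.5-fold and none higher, with a median of -0.31. MLANA, the melanoma antigen Melan-A, had 1252, 1187, 1086 and 650.0 FPKM. SLC24A5 (-0.86), a melanosomal exchanger, and the channel TRPM1 (-0.72) were the others besides PMEL. MITF, the master regulator of the lineage, had 82.6, 85.6, 90.0 and 67.2 FPKM, a log2 difference of -0.35, and SOX10 had 194 FPKM in the vector line and 156 FPKM in the MYC-inducible line with Dox. DCT, an enzyme of pigment synthesis, had a log2 difference of 0.07.

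Lysosomal genes were lower at 8 of 31 (25.8%) and higher at none, and 28 of the 31 had a negative difference. NPC2, a cholesterol carrier, had 297, 304, 287 and 140 FPKM, and the protease CTSB had 372, 369, 386 and 189 FPKM. Genes listed for the proton pump of the lysosome, the V-ATPase, had a median of -0.39, and 19 of 20 had a negative difference. Of the 20, 4 were past 1.5-fold downwards, with ATP6V0D2 at -0.70. The others, ATP6V1D (-0.594), ATP6V0A1 (-0.587) and ATP6V1B2 (-0.585), were barely past it.

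Many matrix genes and some integrins were lower. Among 20 measured collagens, matrix proteins and their proteases and inhibitors, 13 (65.0%) were past 1.5-fold downwards and none upwards, and the median was -0.63. LAMB1 (0.35), MMP16 (0.34) and COL6A1 (0.12) had positive differences that did not reach 1.5-fold. TNC, tenascin C, had 69.7, 71.1, 70.5 and 31.2 FPKM. TIMP1, an inhibitor of matrix proteases, had 540, 558, 541 and 287 FPKM, and MMP14, a membrane-bound matrix protease, had 239, 234, 243 and 117 FPKM. In the 3 of them only the MYC-inducible line with Dox was low. ITGA3, an integrin that binds laminin, had 5.98, 6.02, 6.17 and 1.80 FPKM, and 4 of 12 integrins were past 1.5-fold downwards and none upwards. Of 10 measured ID genes and genes that respond to TGF-beta, 4 were past 1.5-fold downwards, with a median of -0.34. CTGF (-1.29) and CYR61 (-1.18), secreted matricellular proteins, led them, but CYR61 had 1.29, 2.14, 1.25 and 0.887 FPKM, so that the vector line with Dox was also its highest library.

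S100 proteins, small calcium-binding proteins, had the lowest median of the lists with at least 5 measured genes, -0.93, and 7 of 8 (87.5%) were past 1.5-fold downwards. S100B, a serum marker of melanoma, had 666, 595, 662 and 252 FPKM. S100A6 had 403, 404, 448 and 201 FPKM, S100A10 had 398, 365, 382 and 186 FPKM, and S100A1 had 1479, 1486, 1348 and 947 FPKM. The low library of each was the MYC-inducible line with Dox.

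Genes of the interferon response and of antigen presentation were lower at 9 of 19 and 7 of 21, and higher past 1.5-fold at none. IRF9, a subunit with STAT2 of a factor that interferon activates, had 6.54, 8.34, 6.97 and 3.09 FPKM. STAT2 had 8.09, 8.79, 8.89 and 4.07 FPKM and IRF7 had 5.08, 5.96, 5.34 and 2.73 FPKM. ISG15 had 37.5, 57.9, 33.9 and 34.4 FPKM, so that its difference of -0.75 lay in a higher vector library with Dox. HLA-C had 211, 216, 218 and 128 FPKM, while B2M, the light chain of class I molecules, had a log2 difference of -0.18. HLA genes are alike in sequence, and the division of fragments among them is uncertain.

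Feedback genes of the MAPK pathway, which SK-MEL-28 cells keep active through a BRAF mutation, were lower at 5 of 15 with a median of -0.54. PHLDA1 had 58.5, 59.4, 61.1 and 32.8 FPKM, and DUSP6, a phosphatase of ERK, had 33.2, 33.6, 34.5 and 22.3 FPKM. The log2 differences of DUSP6 (-0.586), ETV5 (-0.586) and IER3 (-0.597) were barely past 1.5-fold. AP-1 and immediate-early genes were lower at 5 of 16 with a median of -0.47, and here the vector line with Dox was the highest library for several. EGR1 had 13.4, 22.6, 14.2 and 13.3 FPKM and ATF3 had 0.757, 2.32, 0.854 and 1.25 FPKM. NGFR, a receptor tied to neural crest identity, had 1.45, 1.96, 1.65 and 0.405 FPKM and was the only one past 1.5-fold among the 12 measured genes listed with the receptor tyrosine kinases, whose median was -0.18.

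For another group of genes the difference came with a high level in the vector line with Dox rather than a low level in the MYC-inducible line. CD83, a surface protein of the immunoglobulin family, had 13.3, 48.7, 13.3 and 14.8 FPKM, and BEX1 had 5.83, 15.6, 5.30 and 4.78 FPKM. In both the other 3 libraries lay together, and only the vector line with Dox stood apart. The integrated stress response, a programme of the transcription factor ATF4, showed it as well. DDIT3, encoding CHOP, had 31.7, 59.0, 32.3 and 30.3 FPKM, SESN2 had 1.45, 2.82, 1.41 and 1.70 FPKM, and NUPR1 had 10.7, 25.5, 12.5 and 16.03 FPKM. Of 16 measured genes of this response, 6 were past 1.5-fold downwards and 2 upwards, ASNS (0.65) and ATF5 (0.64), and the median was -0.47. ASNS, asparagine synthetase, had 8.88, 13.4, 6.72 and 21.1 FPKM, so that it was higher with Dox in either line.

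A few genes already set the lines apart without Dox. PDZK1, a scaffold protein of membrane transporters (GRCh37 chr1:145726918-145764207), had 5.59 and 14.7 FPKM in the vector line without and with Dox, and 0.180 and 0.218 FPKM in the MYC-inducible line. Its near-copy PDZK1P2 had 2.25, 5.41, 0.160 and 0.232 FPKM. NEFL, neurofilament light chain, had 5.69, 6.13, 10.7 and 27.3 FPKM, so that its log2 difference was 0.90 without Dox and 2.14 with Dox. UBAP1L had 5.26, 4.51, 8.72 and 11.9 FPKM, and SPATS1 had 12.7, 11.01, 23.3 and 19.9 FPKM, which was no further apart with Dox. EIF3C had 52.1, 58.1, 84.1 and 91.9 FPKM, but its near-identical copy EIF3CL had 99.1, 105, 68.0 and 127 FPKM. The sum of both copies was 151, 163, 152 and 219 FPKM, so that the 2 lines lay close together in the sum without Dox and apart with Dox.

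SNAR-E and SNAR-G1, small RNAs of a family of near-identical copies, were listed at 0 in the MYC-inducible line with Dox. SNAR-E had 19.5 and 22.3 FPKM in the vector line and was also listed at 0 in the MYC-inducible line without Dox. SNAR-B2 had the same values as SNAR-E in both vector libraries and 77.7 and 36.2 FPKM in the MYC-inducible line. Other copies were listed at 0 in every library but the MYC-inducible line with Dox. There SNAR-C3 had 10.1, SNAR-C4 9.04, SNAR-A14 5.42 and SNAR-A8 4.07 FPKM. Fragments of these copies could be divided in more than one way, and no fold is given for those listed at 0.

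The other 8 of the 15 largest falls, among genes averaging at least 5 FPKM, were of genes with varied functions. SLAMF9, an immune receptor of the SLAM family, had 9.63, 12.1, 10.6 and 1.36 FPKM, a log2 difference of -3.07 with a counting error of 0.196. CTSG, cathepsin G, had 20.6, 19.4, 20.7 and 5.48 FPKM, and CST1, a cystatin, had 81.6, 95.4, 85.4 and 29.0 FPKM. HSD17B14, a steroid dehydrogenase, had 53.9, 64.0, 53.8 and 19.7 FPKM. PSCA, a cell surface antigen, had 216, 250, 171 and 73.3 FPKM, and SPRR2D, a protein of the cornified envelope, had 162, 181, 129 and 53.9 FPKM. TPPP, which bundles microtubules, had 7.95, 8.33, 5.97 and 2.39 FPKM, and RAB4B, an endosomal GTPase, had 24.99, 24.1, 20.9 and 7.22 FPKM. MYC-inducible cells with Dox gave the lowest library for all 8, and for PSCA, SPRR2D, TPPP and RAB4B, and by a small margin for HSD17B14, the MYC-inducible line without Dox was the next lowest.

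The untreated lines share no library with the lines given Dox, so the 2 differences can be set against each other. Of the 724 genes higher with Dox, 626 (86.5%) were within 1.2-fold without Dox, 21 were also higher and 6 were lower past 1.5-fold. Of the 961 lower genes, 839 (87.3%) were within 1.2-fold, 10 were also lower and 7 were higher. Among all 11147 genes 93.8% were within 1.2-fold without Dox. The median difference of the higher genes was 0.75 with Dox and 0.05 without, and that of the lower genes was -0.79 and -0.02.

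**Figure D4:**
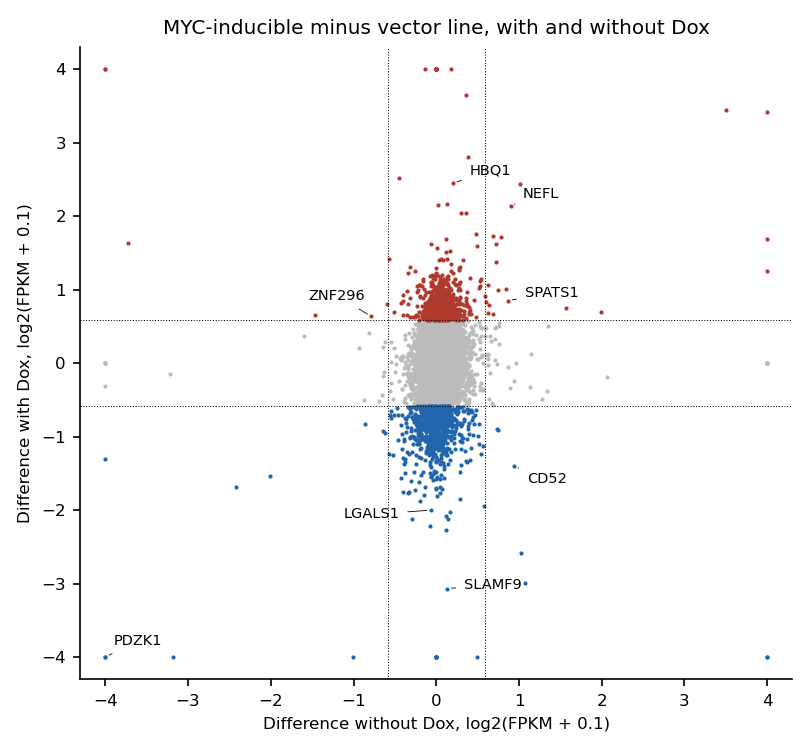
Difference between the MYC-inducible and the vector line without Dox (x axis) and with Dox (y axis) on the log2(FPKM + 0.1) scale, 1 point for each of 11147 genes, with values beyond 4 drawn at 4, red and blue where they pass 1.5-fold with Dox. The cloud is upright: 626 of the 724 higher and 839 of the 961 lower genes lie within 1.2-fold of 0 on the x axis, and NEFL and PDZK1 are among the few that do not.

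The promoters of the called genes were searched for the E-box letters CACGTG, which read the same on both strands, from 250 bases before to 50 bases after the annotated start. RefSeq promoters of GRCh38.p14 matched 8974 of the 11147 genes. The letters were found in 17.0% of the promoters of higher genes (94 of 554), in 7.75% of those of lower genes (56 of 723) and in 10.5% of those of genes that were neither (810 of 7697), and in 7.43% of all 27305 promoters of the reference. The order was kept when promoters of like GC content were compared. In promoters of 60 to 70% GC the shares were 17.6%, 9.28% and 11.1%, and in those above 70% GC they were 20.2%, 7.36% and 11.02%. Within 50 bases of the start the letters were in 9.39% of higher, 2.77% of lower and 4.27% of the other promoters. Just after the start there were 25 matches in 554 higher promoters, 3 in 723 lower promoters and 87 in 7697 others.

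Among the ribosome assembly factors, 14 of the 34 with a promoter in the reference (41.2%) held the letters, 13 of them within 50 bases of the start, as in the sequences of FBL, RRP9, UTP20 and PNO1 above. They were found for 10 of the 23 factors past 1.5-fold and for 4 of the other 11. NOP10, with the smallest difference of the list, held them too. The letters were in 3 of 65 cytosolic ribosomal protein promoters (4.62%), in none of 10 SR protein promoters and in none of 13 melanocyte lineage promoters. Lists with lower genes held them too, at 4 of 12 V-ATPase (33.3%), 6 of 21 lysosome (28.6%), 3 of 11 cell cycle inhibitor (27.3%) and 3 of 13 AP-1 promoters (23.1%), and 6 of 18 hnRNP promoters (33.3%) did. A match only says that these letters are in the window, and whether MYC bound there was not tested.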

How the data were processed

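Total RNA of 4 cultures, 1 per condition, was sequenced. FPKM values by symbol were deposited by the authors, made per the submitters' processing notes with TopHat2 2.0.14 and Cufflinks on hg19 (GRCh37), and the gene annotation is not given in the sources used here. The table held 27032 rows. The row without a gene name was dropped, the 609 symbols with several rows were summed, and 25268 symbols were left.

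FPKM values are not counts and each condition has 1 library, so no count model was fitted and no test was made. The difference of a gene was that of log2(FPKM + 0.1) between 2 libraries, and genes averaging 1 FPKM or more in the 4 libraries were kept. A gene was called higher or lower beyond 1.5-fold. Depth was estimated from the steps between low values, where 1516 of 2726 low genes were whole multiples of 1 step within 1.2%, and from the lengths of 161 genes with a single transcript, whose quartiles for the vector line without Dox were 3.4e+07 and 4.09e+07 fragments. GENCODE 44 on GRCh37 gave positions, lengths and GC content, and it matched 97.8% of the genes tested.

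The members, the 46 gene lists and the rule for named genes were chosen with earlier results of these data known. Named genes were, averaging 5 FPKM or more and leaving out symbols of short noncoding RNAs (SNOR, SCARNA, MIR and the like, a rule that did not cover the SNAR family), the 15 largest rises and falls, up to 5 each way past 1.5-fold both with and without Dox, the 10 most abundant called genes, up to 6 called genes a list, and 16 fixed genes. A few others are given as copies, neighbours or uncalled members of a list and were picked after their values were seen. Some genes that the rule selects are not reported here. The list of genes encoded by mitochondrial DNA had no member in the table.

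Settings tried besides these were a pseudocount of 1 or 0.01, a filter at 5 FPKM or none, rescaling (same sum, median ratio, upper quartile), subtraction of the difference without Dox, a 2-fold threshold, the mean over a list, and leaving out symbols with several rows. The removal of trends with GC content and length was chosen after seeing the data. The calculations were tested on simulated data. Calculations ran in Python 3.11.15 with numpy 2.4.6 and pandas 2.3.3, and figures were drawn with matplotlib 3.10.9.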

Additional observations from a re-analysis of the deposited data

Results flagged for a closer look

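Past 1.5-fold, 13 genes differed in opposite directions with and without Dox, of which the 4 described here had at least 0.5 FPKM in every library and are neither short noncoding RNAs nor Y-linked. At 2 gene lists the medians had opposite signs and were both larger than 0.106, the robust SD of the difference without Dox. With 1 library a condition these reversals were not tested. CD52, a small surface protein of lymphocytes, had 0.866 FPKM in vector cells and 1.76 FPKM in MYC-inducible cells without Dox, and 2.04 and 0.709 FPKM with Dox. Its log2 difference was -1.41 with Dox and 0.94 without, and with Dox it rested on approximately 33.5 and 13.02 fragments. SCRG1 had 1.14 and 1.97 FPKM without Dox and 1.24 and 0.612 FPKM with Dox, which gave -0.91 with Dox and 0.74 without. LOC100506860 had 1.75 and 2.97 FPKM without Dox and 1.79 and 0.911 FPKM with Dox, which gave -0.90 and 0.73. For ZNF296, a zinc finger gene, the difference was 0.64 with Dox and -0.79 without. The median of the interferon response was -0.56 with Dox and 0.13 without, and that of the receptor tyrosine kinases was -0.18 and 0.15.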

How the results depend on the processing

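No paired analysis was possible because there was 1 library for each condition. The counts of genes higher and lower, 724 and 961 as reported, were 1295 and 1761 without a filter, 438 and 570 with a filter at 5 FPKM and 132 and 231 at 2-fold. The share of higher genes among those called was 43.0% as reported and ranged from 36.4% at 2-fold to 47.3% under the median ratio. MYC was 0.28 after subtraction of the difference without Dox. A list median was taken as moved when it shifted by more than 0.106, the robust SD of the difference without Dox. With that filter at 5 FPKM the medians were -0.40 for cell cycle inhibitors, -0.16 for the integrated stress response, 0.069 for splicing-related kinases and -0.33 for receptor tyrosine kinases. After subtraction of the difference without Dox they were -0.15 for polyamines, 0.27 for serine and folate genes, -0.024 for amino acid transporters, 0.018 for cholesterol synthesis, -0.39 for galectins, -0.75 for S100 proteins, 2.42 for hemoglobins, -0.53 for the melanocyte markers and 0.035 for markers of other cells. Without a filter they were 0.27 for serine and folate genes and 0.15 for the list of TXNIP, whose direction turned. That setting gave -0.11 for galectins, -0.46 for matrix genes, -0.38 for the interferon response, 0.53 for hemoglobins and 0 for markers of other cells. As a mean they were -0.33 for the integrated stress response, 0.088 for splicing-related kinases, -0.42 for MAPK feedback, -0.78 for galectins, -0.47 for TGF-beta response genes, -0.42 for p53 targets, -0.000494 for iron genes, whose direction turned, 2.97 for hemoglobins and 0.38 for markers of other cells. With a pseudocount of 1 they were -0.79 for S100 proteins, -0.38 for the interferon response and 2.10 for hemoglobins, which had 3.09 with a pseudocount of 0.01. The median of the BCL2 family was -0.11 with the trends of GC content and length removed, and the counts were then 686 and 896. Single named genes that turned direction after subtraction of the difference without Dox were SPATS1 (-0.020), SNAR-B2 (-1.30), EIF3C (-0.026) and CLK4 (0.16, from -0.06). The medians of polyamines and amino acid transporters also changed sign under that subtraction. That of splicing-related kinases changed sign with the filter at 5 FPKM and as a mean. Scaling by the median ratio turned complex I (0.0029, from -0.02) and CLK2. The causes of these shifts were not tested. No result is read from the hemoglobin values, because HBA1 and HBA2 passed the 1 FPKM filter only through the library where they were high. EPCAM did the same among the markers of other cells, so the values of those markers are not read either. Of 493 list values under these settings, 459 moved by no more than the SD above.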

Other observations

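Genes of the cholesterol, iron and respiratory chain lists, not described above, showed little on balance. Of 22 genes of cholesterol synthesis and uptake, DHCR7 (0.64) and HMGCS1 (0.61) were past 1.5-fold upwards and 2 genes downwards, TM7SF2 (-1.09) among them, and the median was 0.14 both with and without Dox. Of 12 iron genes, HMOX1, heme oxygenase 1, was past 1.5-fold, with 119, 114, 110 and 63.5 FPKM, and the median was 0.13. None of 37 subunits of respiratory chain complex I was, and their median was -0.02, turning to 0.0029 under the median ratio. In the proteasome, PSMG1 (0.69) and PSMG4 (0.60), assembly factors, were the 2 of 46 genes past 1.5-fold, and the median was 0.10. Among 14 amino acid transporters, SLC7A2 (1.06), SLC38A1 (1.03) and SLC43A1 (0.72) were higher, and the median was 0.10.

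Called genes lay next to each other on the chromosomes more often than the share over all genes. Of 1202 neighbour positions beside a higher gene, 9.32% held a higher gene, against 6.41% of the 10900 genes with a position. Of 1603 positions beside a lower gene, 13.6% held a lower gene, against 8.62%. A gene with called genes on both sides was counted once for each. Chromosome 22 had the lowest median difference, -0.13, with 13.99% of its 286 genes lower and 3.85% higher, and its median without Dox was -0.04. Chromosome 21 had the highest share of higher genes, 11.4% of 114, and the same sign of its median in both states, 0.09 with Dox and 0.08 without.

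The transcripts of lower genes were richer in GC, with a median of 54.9% against 48.5% for higher genes and 47.7% for the others. Median transcript lengths were 2409.5 bases for lower, 2618 for higher and 3205 for the other genes. Symbols of short noncoding RNAs differed often in both states. Of 50, 17 (34%) were higher and 13 (26%) lower with Dox, against 6.50% and 8.62% of all genes. Without Dox 24 (48%) differed, against 0.879% of all genes. The 43 genes of any kind listed at 0 in a library had like shares, 39.5% and 25.6% with Dox and 48.8% without.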
